A study of Mus musculus with 25 samples.

Results

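The genes described are 44 genes of protein folding in the endoplasmic reticulum and of the unfolded protein response, measured by RNA sequencing of total RNA from whole mouse liver. They were chosen by name: a locus was taken if its symbol in the authors' annotation was one of the 44. All 44 were found among the 46499 loci of a cohort aged 20 weeks and the 46052 loci of a cohort aged 39 weeks. All 44 had a mean of at least 1 FPKM (sequenced fragments scaled to transcript length and to the size of the library) in each cohort and were tested beside 10963 and 11441 loci in all. The locus of Hsp90b1 also carries the names Gm15344 and Gm25745, that of Pdia4 carries Mir704 and that of Manf carries Rbm15b, so the value of Manf in particular may hold fragments of a neighbour. Dnajb11 has a pair of loci at the same coordinates, and the higher one was used.

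The livers came from 25 C57BL/6 mice fed a standard diet, labelled wild type or Ncoa5+/-, that is, carrying 1 intact copy of Ncoa5, a gene for a nuclear receptor coactivator. The younger cohort held 4 untreated wild type mice and 4 untreated mice labelled Ncoa5+/-, all aged 20 weeks. The older cohort, aged 39 weeks, had 4 untreated wild type mice and 5 untreated mice labelled Ncoa5+/-, beside 3 wild type and 5 mice labelled Ncoa5+/- that drank metformin. This drug lowers blood glucose and was dosed through the water, 250 mg/kg/day between weeks 8 and 39. The labels used here state no sex and do not say which part of Ncoa5 was removed. Ncoa5 itself did not separate the labels: it ran from 2.90 to 5.03 FPKM in mice labelled Ncoa5+/- and from 3.11 to 5.30 FPKM in wild type mice at 20 weeks, and from 2.63 to 4.42 and from 3.604 to 4.68 FPKM in the untreated mice at 39 weeks. Every genotype direction therefore rests on the labels. The cohorts were prepared at different facilities and sequenced on different instruments, and no test crosses them. The number of reads behind each FPKM value is not known. From the spacing of the lowest values, 16 of the libraries at 39 weeks held between 0.691 and 1.06 times the fragments of the first Ncoa5+/- library, and the spacing gave no clear value for wild type replicate 3 at 20 weeks. Of the hepatocyte markers, Alb is listed at 0 in all 25 mice. Apoa1 is at 0 in every mouse at 20 weeks and in every mouse labelled Ncoa5+/- at 39 weeks. Ttr at 20 weeks is at 0 in all 4 wild type mice, against 5573 to 9217 FPKM in mice labelled Ncoa5+/-. It was left out there as a failed estimate. At each age 8 of the 13 listed hepatocyte markers were tested. The other hepatocyte markers that were estimated summed to between 4407 and 8894 FPKM in every mouse. More than 70% of the FPKM sum lay in the 50 highest loci of 3 libraries: wild type replicate 4 at 20 weeks, untreated Ncoa5+/- replicate 3 and metformin-treated Ncoa5+/- replicate 5 at 39 weeks.

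Secreted and membrane proteins enter the endoplasmic reticulum through the Sec61 channel and are folded there by chaperones, lectins and disulfide isomerases. Proteins that fail to fold are sent back to the cytosol and degraded, a process called endoplasmic reticulum-associated degradation (ERAD). When unfolded proteins accumulate, the sensors IRE1 (gene Ern1), ATF6 and PERK switch on the unfolded protein response. IRE1 splices the Xbp1 transcript and ATF6 is cut to release a transcription factor, and both act on promoters of chaperone and ERAD genes, while PERK slows translation and acts through ATF4. Hepatocytes secrete most plasma proteins and hold much of this machinery. The FPKM values are per gene and do not tell spliced from unspliced Xbp1.

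Many target genes carry known response elements in their promoters, and the reference promoters were searched for these, because they show what the genes share apart from their names. The window was 250 bases before to 50 bases after the annotated start, from the RefSeq promoter table of GRCm38.p6, on both strands. The endoplasmic reticulum stress element (ERSE) was CCAAT and CCACG with 9 bases between them. ERSE-II was ATTGG, 1 base and CCACG. The core of the unfolded protein response element (UPRE) was TGACGTGG, and the amino acid response type element (CARE) was TGATG, 1 base and AA. ERSE and ERSE-II can share a CCACG.

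A promoter was found for 35 of the 44 genes, and 9 of these held an ERSE: Hspa5, Hsp90b1, Dnajc3, Creld2, Calr, Canx, Pdia6, Syvn1 and Derl3. Of all 32817 promoters in the table, 0.119% held one. An ERSE-II lay in Dnajb11 and Herpud1 (0.0366% of all promoters), a UPRE core in Txndc5 and Txndc11 (0.676%) and a CARE in Txndc5 and Herpud1 (3.97%). At least 1 of the first 3 motifs lay in 13 of 35 genes (37.1%), against 0.885% of the 26994 symbols in the table. The other 22 held none of the 3. The genes were chosen by name as genes of this response, so their share is a description and no test. A match is a description of the letters and no sign that a factor binds there.

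The stretches below hold the matches to the first 3 motifs in 8 of the 13 genes with one. Matched letters are in capitals, and each stretch is read 5′ to 3′ on the strand of its gene. Hyou1, Dnajb9, Pdia4, Manf and Sdf2l1, which also figure in the results, are not among the 13, through no match or no promoter entry. They lie at chr2:34772005-34772063 (Hspa5, plus strand), chr10:86705513-86705676 (Hsp90b1, minus), chr15:88819500-88819558 (Creld2, plus), chr14:118937807-118937865 (Dnajc3, plus), chr19:6046512-6046570 (Syvn1, plus), chr10:75893222-75893280 (Derl3, plus), chr8:94386357-94386407 (Herpud1, plus) and chr16:11134607-11134654 (Txndc11, minus). Hsp90b1 holds 2 ERSE matches, of which the second, like those of Creld2 and Derl3, is on the opposite strand and therefore reads CGTGG before ATTGG.
Hspa5: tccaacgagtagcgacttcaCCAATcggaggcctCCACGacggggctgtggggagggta
Hsp90b1: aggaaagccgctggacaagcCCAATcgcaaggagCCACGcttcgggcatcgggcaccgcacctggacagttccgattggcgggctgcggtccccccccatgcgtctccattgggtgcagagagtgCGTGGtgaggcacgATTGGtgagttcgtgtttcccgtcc
Creld2: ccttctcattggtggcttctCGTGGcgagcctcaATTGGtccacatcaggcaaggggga
Dnajc3: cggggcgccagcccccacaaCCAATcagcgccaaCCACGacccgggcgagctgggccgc
Syvn1: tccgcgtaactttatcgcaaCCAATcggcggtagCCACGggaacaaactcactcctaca
Derl3: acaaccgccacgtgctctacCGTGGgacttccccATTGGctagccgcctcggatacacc
Herpud1: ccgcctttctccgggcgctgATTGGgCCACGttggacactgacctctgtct
Txndc11: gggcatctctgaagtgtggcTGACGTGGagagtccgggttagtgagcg

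**Figure D1:**
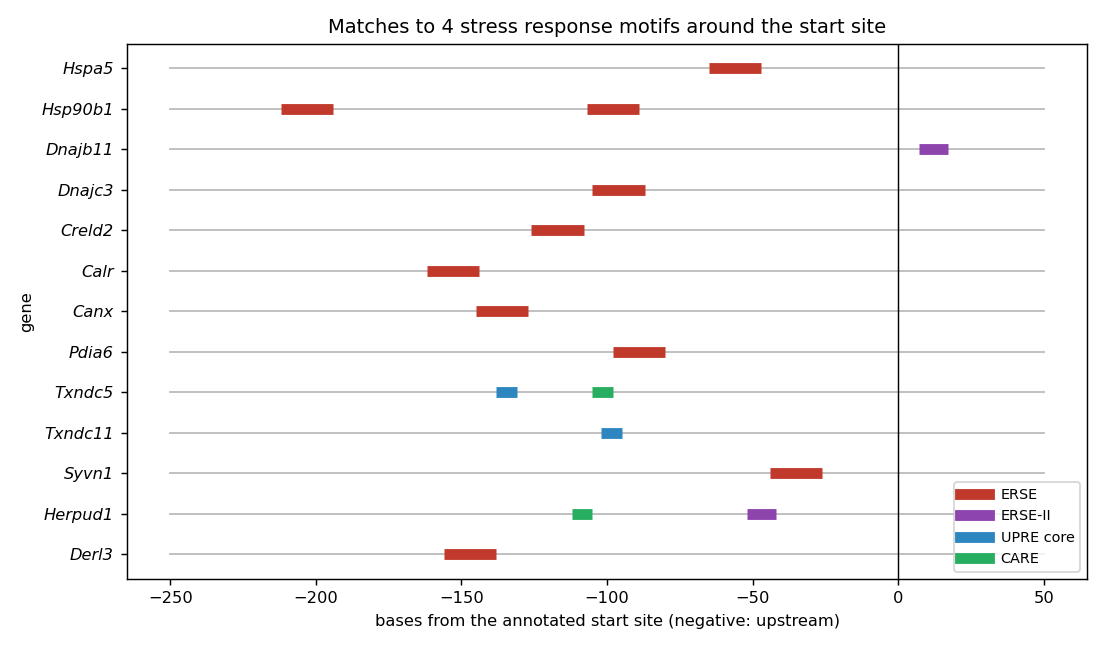
Positions of the matches in the 13 genes with an ERSE, ERSE-II or UPRE core, with any CARE in promoters of the same genes. Positions are in bases from the annotated start site of each match's own window (negative is upstream). The UPRE core and the CARE of Txndc5 lie in windows of different start sites but are drawn on the same line. Each grey line is the window searched and each coloured bar is 1 match, and all matches but that of Dnajb11 lie upstream of the start.

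At 20 weeks the folding genes lay higher in the mice labelled Ncoa5+/- than in wild type mice, but no single gene passed the test over all loci. Of 44 log2 fold changes 41 were positive and 3 negative, with a median of 0.39, while 54.4% of all loci tested were positive, with a median of 0.03. By limma, a linear model fitted to all loci at once, 0 of 44 genes had a Benjamini-Hochberg adjusted p under 0.05, as did 0.0% of all loci, and the smallest adjusted p of the genes was 0.603. At an unadjusted p under 0.05 there were 21 genes, all of them higher, where 5.05% of all loci were higher at that level and 7.48% were past it in either direction. In 12 genes every mouse labelled Ncoa5+/- lay above every wild type mouse (2.96% of all loci), and in 0 genes every one lay below (1.06% of all loci). That number ran up to 19 with 1 mouse left out, which by itself makes groups easier to separate, and it was 19 without Ncoa5+/- replicate 1. The share of all loci apart was not taken with a mouse left out, so 2.96% is no measure for the 19. The 12 genes were Hspa5, Hyou1, Dnajb9, Dnajc3, Dnajc10, Creld2, Pdia4, Pdia6, Txndc11, Syvn1, Edem1 and Ssr3.

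The Hsp70 and Hsp90 chaperones and their cofactors stood furthest from wild type, with 12 of 12 positive, a median log2 fold change of 0.66 and 11 at an unadjusted p under 0.05. Hspa5 encodes BiP, the main Hsp70 of the organelle. Mice labelled Ncoa5+/- had 515.9, 544.1, 623.5 and 552.5 FPKM of it, and wild type mice had 461.3, 335.0, 251.5 and 344.7 FPKM. The groups did not overlap, and the means were 559 ± 45.8 and 348 ± 86.2 FPKM (SD, n = 4 and 4), with a log2 fold change of 0.71 ± 0.19 (SE) and a limma adjusted p of 0.603. The same adjusted p belongs to each of the 10 genes with the smallest p named in this comparison.

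Creld2, a secreted cofactor and known stress target, differed most, at 31.4, 43.99, 74.6 and 59.6 FPKM against 24.6, 23.4, 10.8 and 11.6 FPKM in wild type mice. Its log2 fold change was 1.54 ± 0.34 (SE, ratio of means 2.97), and its highest wild type value lay below its lowest value in mice labelled Ncoa5+/-. Hyou1, a large Hsp70-like exchange factor of BiP, stood at 52.5, 49.7, 68.2 and 47.6 FPKM against 41.8, 29.0, 20.7 and 28.7 FPKM (0.87 ± 0.21 on the log2 scale). Dnajb9, a J-domain cofactor of BiP, stood at 46.4, 66.5, 56.4 and 51.3 FPKM against 35.4, 41.9, 17.1 and 20.1 FPKM (1.003 ± 0.28). In both genes the groups were apart, and the 2 lowest wild type values of Dnajb9 were those of replicates 3 and 4. Dnajc3, the J-domain cofactor p58IPK, had a log2 fold change of 0.48 ± 0.13 with the groups apart.

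Other cofactors of the group overlapped between genotypes. Hsp90b1, which encodes the Hsp90 of the organelle, stood at 334.0, 456.5, 456.9 and 485.2 FPKM against 343.0, 283.1, 274.4 and 256.6 FPKM (log2 fold change 0.58 ± 0.17), and replicate 1 of the mice labelled Ncoa5+/- lay inside the wild type range. Sdf2l1, a component of the BiP complex, ran from 16.1 to 51.3 FPKM in mice labelled Ncoa5+/- and from 15.0 to 22.3 FPKM in wild type mice, again with replicate 1 the lowest of its group. Manf, a secreted stress-induced factor whose locus includes Rbm15b, stood at 93.2, 168.2, 166.0 and 146.6 FPKM against 90.4, 102.1, 28.1 and 41.1 FPKM, an overlap of 1 mouse on each side.

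Lectin chaperones, disulfide isomerases and prolyl isomerases were also 12 of 12 positive, with a smaller median log2 fold change of 0.39 and 4 at an unadjusted p under 0.05. Pdia4, a disulfide isomerase, stood at 80.6, 99.4, 83.8 and 92.9 FPKM against 76.1, 65.0, 55.5 and 54.2 FPKM (0.51 ± 0.15), without overlap. Calr, which encodes the lectin chaperone calreticulin and had the highest mean of the 44 genes at this age, stood at 385.0, 621.1, 611.8 and 757.3 FPKM against 500.4, 397.8, 405.0 and 361.1 FPKM. The groups overlapped, since 3 of the 4 wild type values lay above the 385.0 FPKM of Ncoa5+/- replicate 1.

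ERAD genes were positive in 8 of 9, with a median of 0.38 and 4 at an unadjusted p under 0.05. Syvn1, the ubiquitin ligase HRD1, stood at 37.9, 33.1, 43.9 and 34.9 FPKM against 30.4, 21.6, 13.96 and 19.7 FPKM (0.82 ± 0.22), without overlap. Edem1, which marks glycoproteins for degradation, had a log2 fold change of 0.38 ± 0.11, also without overlap. Herpud1, a membrane subunit of the ligase complex, stood at 296.6, 347.0, 312.8 and 381.7 FPKM against 335.8, 207.7, 196.9 and 153.7 FPKM, where wild type replicate 1 lay among the other genotype. Derl3, a derlin of secretory cells, was low in every mouse (0.401 to 4.83 FPKM) and overlapped.

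The sensors and the translocation machinery lay closest to wild type. Xbp1, the transcription factor transcript that IRE1 splices, stood at 85.3, 124.7, 151.6 and 123.5 FPKM against 83.2, 162.6, 82.6 and 93.5 FPKM, and its highest value was a wild type one. Ern1 ran from 5.53 to 9.62 FPKM in mice labelled Ncoa5+/- and from 6.68 to 10.5 FPKM in wild type mice, and it was 1 of the 3 negative genes. Of the 8 translocation genes 7 were positive with a median of 0.27. Ssr3, a subunit of the translocon-associated complex, had a log2 fold change of 0.44 ± 0.12 with the groups apart, whereas Sec61b, a channel subunit, ran from 120.0 to 162.9 and from 97.4 to 137.7 FPKM in the respective genotypes and overlapped.

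**Figure D2:**
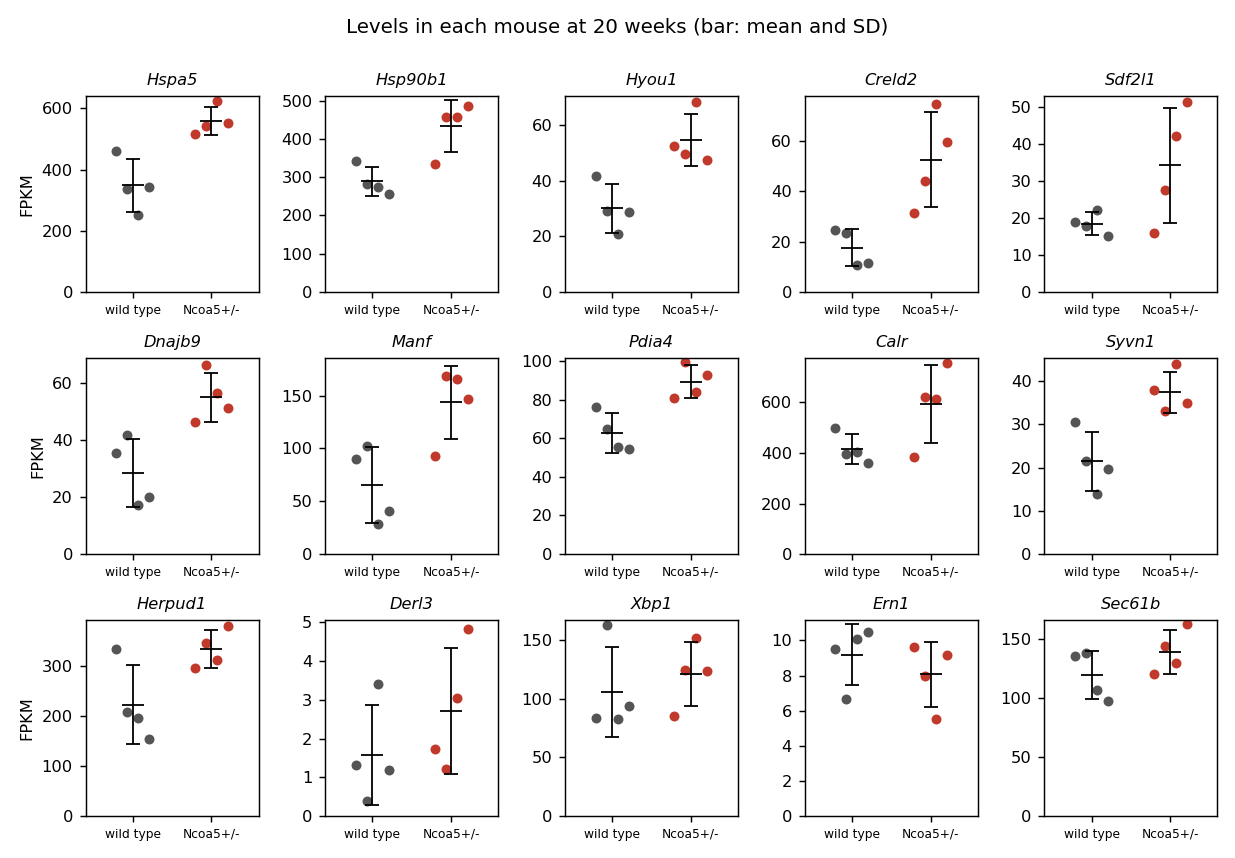
FPKM of the 15 genes given by mouse at 20 weeks, 1 panel a gene, with points for mice and bars for the mean and SD of 4 mice a group. Points of the 2 groups are apart for Hspa5, Hyou1, Creld2, Dnajb9, Pdia4 and Syvn1 and overlap for the other genes.

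Counted by mouse, the same values lay apart by group. Mice labelled Ncoa5+/- had 30, 39, 39 and 36 of the 44 genes above the cohort mean of log2(FPKM + 1), and wild type mice had 19, 14, 7 and 4. Of all loci tested, 57.1, 49.8, 50.8 and 50.3% lay above theirs in mice labelled Ncoa5+/-, and 48.0, 48.6, 46.1 and 46.3% in wild type mice. Wild type replicates 3 and 4, whose sample names differ in form from those of the other 6 mice, were thus the lowest, and at least 1.5-fold below the cohort median in 10 genes each. How many of all loci lay that far below in these 2 mice was not counted. With those 2 mice left out, an alternative chosen after the data were seen, 41 genes were still positive and the median log2 fold change was 0.28, but 8 rather than 21 genes had an unadjusted p under 0.05 (1.73% of all loci). Creld2 then stood at a log2 fold change of 1.02, Hspa5 at 0.50 and Dnajb9 at 0.49.

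Other lists moved with the genotype too, and their part in the result was not tested. All 8 Kupffer cell and macrophage markers were negative in mice labelled Ncoa5+/-, and their summed level was 38.6 to 65.1 FPKM against 46.3 to 118 FPKM in wild type mice, highest in wild type replicates 3 and 4 (118 and 96.1). Endothelial markers were negative in 5 of 6 tested, stellate cell markers in 4 of 5, plasma and B cell markers in 1 of 2 (all 8 loci summed to 5.91 to 14.9 against 15.9 to 26.7 FPKM, without overlap) and the 1 pancreatic marker tested, whereas erythroid markers were positive in 5 of 5, hepatocyte markers in 6 of 8, neutrophil markers in 2 of 2, clock genes in 4 of 8 and the 1 cholangiocyte marker tested. The hepatocyte markers that were estimated summed to 6215 to 7172 FPKM in mice labelled Ncoa5+/-. In wild type replicates 1, 2, 3 and 4 they summed to 7312, 4731, 4862 and 4407 FPKM. No T or NK cell marker reached the level needed for a test. In bulk tissue, fewer cells of a type and less RNA per cell cannot be told apart. The 6 loci of cytosolic heat shock genes were all positive (median 0.79) and summed to 462 to 1025 against 422 to 708 FPKM. The immediate early genes were positive in 6 of 7 and summed to 27.6, 31.8, 71.7 and 145 FPKM in mice labelled Ncoa5+/- and to between 24.1 and 44.7 FPKM in wild type mice. In replicates 1 and 2 of the mice labelled Ncoa5+/- both sums lay inside the wild type range, and in replicates 3 and 4 both lay above it.

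Other genes of the pathway lay in the same direction. Of 90 tested genes from a list of 93 outside the 44 genes, 72 were positive and 18 negative, beside 54.4% positive over all loci. Their median was 0.24, beside 0.03 over all loci. None of the 90 passed limma's adjusted test, and 15 had an unadjusted p under 0.05, all higher (5.05% of all loci). These counts were not taken without wild type replicates 3 and 4. Oxidation and glycan genes held 6 of these, among them Ero1l (log2 fold change 0.58 ± 0.15) and Ero1lb (0.68 ± 0.17), the oxidases that recharge disulfide isomerases. The PERK and ATF4 branch was positive in 9 of 11. The 2 at an unadjusted p under 0.05 were Eif2ak3, the gene of PERK, at 0.65 ± 0.18 and Ddit3, the gene of CHOP, at 0.80 ± 0.35. Ddit3 overlapped between the groups, and its lowest values were 5.21 and 6.09 FPKM in wild type replicates 3 and 4. The 2 negative genes were Trib3 (-0.46 ± 0.33) and Chac1 (-0.06 ± 0.24). The remaining sensors were positive in 4 of 7 with a median of 0.00. Genes of export vesicles were positive in 16 of 19 with a median of 0.22 and 0 at an unadjusted p under 0.05.

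The authors' deposited table for this comparison marked 5 of the 44 genes significant, all higher in mice labelled Ncoa5+/-, among 2.1% of all loci it tested. They were Creld2, Hyou1, Dnajb9 and Sdf2l1 (q = 0.00413 each in the authors' deposited table) and Dnajb11 (q = 0.042). Its log2 fold changes were positive in 43 of 44 genes, Ern1 being the exception, with a median of 0.37. Sdf2l1, whose deposited log2 fold change was 1.04, is 1 of those whose values overlapped between the mice.

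At 39 weeks no folding gene separated the untreated genotypes. Of 44 log2 fold changes 12 were positive and 32 negative, with a median of -0.09 beside -0.02 over all loci, of which 44.4% were positive. By limma 0 of 44 genes passed, while 0.262% of all loci did, and the smallest adjusted p of the genes was 0.913. At an unadjusted p under 0.05 there were 0 genes, against 5.62% of all loci, and 0 genes had groups without overlap. The 10 genes with the smallest p, each at an adjusted p of 0.913 by limma, ran from -1.01 ± 0.73 for Creld2 to 0.14 ± 0.09 for Dnajc10, a disulfide reductase with a J domain. Between these, Hspa5 stood at -0.76 ± 0.46, Herpud1 at -0.72 ± 0.40, Dnajb9 at -0.72 ± 0.42, Syvn1 at -0.62 ± 0.42 and Txndc11, a thioredoxin-like membrane protein, at -0.44 ± 0.23. Xbp1 stood at -0.30 ± 0.23, the ERAD adaptor Sel1l at -0.27 ± 0.19 and Sil1, an exchange factor of BiP, at 0.12 ± 0.08. Without wild type replicate 2 the values shrank to -0.35 for Creld2, -0.27 for Hspa5, -0.28 for Herpud1, -0.19 for Dnajb9, -0.17 for Syvn1, -0.11 for Txndc11, -0.08 for Xbp1 and -0.07 for Sel1l. Without wild type replicate 1 they were larger for Creld2 (-1.72) and Hspa5 (-1.18), and without Ncoa5+/- replicate 5 they were -1.64 and -1.11. Single mice stood far from the rest of their groups. All 8 macrophage markers, all 8 immediate early genes tested, all 6 endothelial markers and all 6 cytosolic heat shock loci (median -0.99) were lower in mice labelled Ncoa5+/- too, and their part in these values was not tested.

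Hspa5 shows this spread. Its values in the 5 untreated Ncoa5+/- livers were 225.2, 203.6, 167.0, 239.8 and 684.0 FPKM, and the 4 untreated wild type mice had 187.0, 1247.9, 356.4 and 479.5 FPKM. With metformin the values were 195.6, 280.1, 199.3, 217.9 and 244.0 FPKM in the Ncoa5+/- group, against 172.5, 176.1 and 348.3 FPKM in treated wild type mice. The highest values belonged to wild type replicate 2 and to replicate 5 of the mice labelled Ncoa5+/-, 1 mouse of each genotype, both untreated. Each of these 2 mice, and wild type replicate 4, had at least 11 of the 44 genes at 1.5 times the cohort median or more, while none of the other 14 mice had more than 6. Wild type replicate 2 had 21 such genes, replicate 5 of the mice labelled Ncoa5+/- had 19 and wild type replicate 4 had 11. The share of all loci at 1.5 times the median was not taken. In the same order, 41, 38 and 34 of the 44 genes lay above the cohort mean of log2(FPKM + 1). Of all loci tested, 53.3, 46.3 and 52.0% lay above theirs. These 3 mice were singled out after their values were seen and carry no test.

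In 11 genes all 3 mice reached that level: Hspa5, Hsp90b1, Hyou1, Dnajb11, Sdf2l1, Manf, Creld2, Pdia3, Pdia4, Syvn1 and Derl3. Creld2 spanned the widest range of these apart from Derl3, at 242.3 FPKM in wild type replicate 2, 174.4 FPKM in Ncoa5+/- replicate 5 and 91.3 FPKM in wild type replicate 4, that is, 12.9, 9.28 and 4.86 times the median of the 17 mice. In the other 14 mice Creld2 lay between 13.0 and 44.5 FPKM. Hyou1 stood at 124.1, 127.4 and 91.2 FPKM in these 3 mice and Pdia4 at 185.3, 221.8 and 156.0 FPKM, against at most 55.9 and 99.0 FPKM elsewhere. Manf stood at 557.8, 557.4 and 382.5 FPKM and Hsp90b1 at 611.4, 700.7 and 493.8 FPKM, against at most 295.5 and 279.2 FPKM elsewhere. In each of these 5 genes the 3 mice were the highest of the 17.

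A second set of genes was high in wild type replicate 2 but not in the other 2 mice: Dnajb9, Txndc11, Sel1l, Herpud1 and Xbp1 passed 1.5 times the median there alone of the 3. Untreated wild type mice had 195.0, 916.0, 504.6 and 198.0 FPKM of Herpud1, and untreated mice labelled Ncoa5+/- had 267.4, 333.8, 233.0, 232.9 and 111.4 FPKM. The value of 111.4 FPKM in Ncoa5+/- replicate 5 was the lowest of all 17 mice, in an animal with Hspa5 at 684.0 FPKM. Dnajb9 likewise stood at 169.1 FPKM in wild type replicate 2, but at 29.8 FPKM in Ncoa5+/- replicate 5 and 29.0 FPKM in wild type replicate 4, among values of 25.6 to 75.5 FPKM in the other 14 mice. Txndc11 was at 32.6 FPKM in wild type replicate 2 and between 9.64 and 16.1 FPKM in all other mice. Derl3 was highest in Ncoa5+/- replicate 5 (29.2 FPKM) and wild type replicate 4 (18.4 FPKM), followed by Ncoa5+/- replicate 3 (13.3 FPKM) and wild type replicate 2 (9.18 FPKM). In the other 13 mice it lay between 1.05 and 3.71 FPKM.

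Stress genes outside the list differed in the same way between these mice. In wild type replicate 2 Ddit3 was at 117 FPKM, Fos at 76.5 FPKM, Egr1 at 278 FPKM and the merged locus of Hspa1a and Hspa1b, the inducible cytosolic Hsp70, at 107 FPKM. In Ncoa5+/- replicate 5 Ddit3 was at 6.76, Fos at 0.459, Egr1 at 2.37 and Hspa1a at 1.70 FPKM, and in wild type replicate 4 they were at 7.18, 0.320, 0.860 and 2.22 FPKM, each below or within the range of the other 14 mice. The summed immediate early genes reached 913 FPKM in wild type replicate 2 and between 37.0 and 111 FPKM in the other mice. The summed cytosolic heat shock loci reached 2104 FPKM there, and at most 860 FPKM in the others, in wild type replicate 3 and metformin-treated wild type replicate 3. These 2 mice had Dnajb9 at 61.6 and 75.5 FPKM, the next highest after wild type replicate 2. Among lists of other secretory cells, the summed pancreatic markers were highest of all 17 mice in wild type replicate 2 (82.7 FPKM). They stood at 36.9 and 48.7 FPKM in Ncoa5+/- replicate 5 and wild type replicate 4, among 25.2 to 71.3 FPKM in the others. Of the 10 pancreatic loci summed, only 2 were above 0 in each of these 3 mice. Only 1 reached the level needed for a test, so the sum does not describe the markers as a set. The summed plasma and B cell markers were at 23.2, 14.1 and 23.2 FPKM in the same order, among 12.1 to 304.7 FPKM in the others. The part of these lists in the pattern was not tested.

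**Figure D3:**
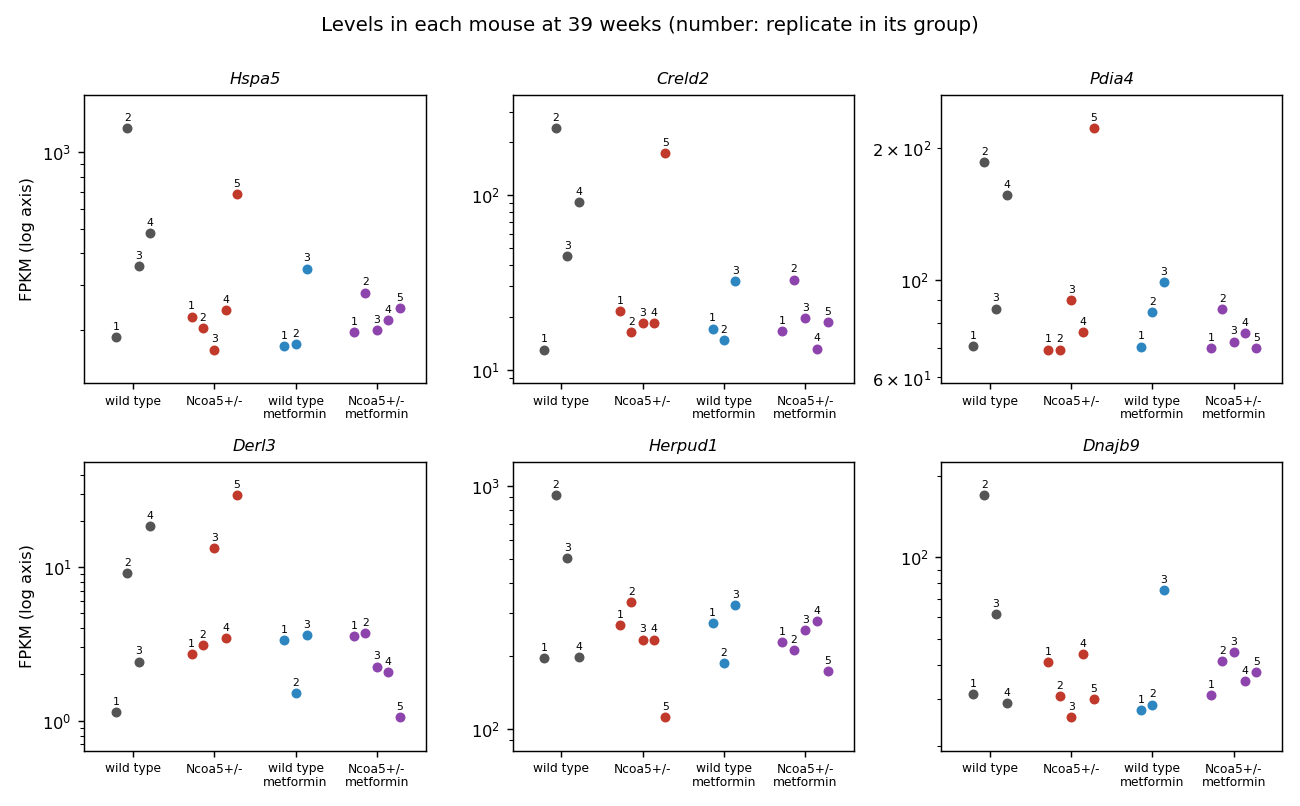
FPKM of 6 genes in each of the 17 mice at 39 weeks on a log axis, numbered by replicate within the group. Hspa5, Creld2 and Pdia4 are high in wild type mice 2 and 4 and Ncoa5+/- mouse 5, Derl3 in those and Ncoa5+/- mouse 3, whereas Herpud1 and Dnajb9 are highest in wild type mouse 2 and not raised in Ncoa5+/- mouse 5.

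The spread between mice was wider for these genes than for most loci at 39 weeks. The median SD within groups, on the log2 scale after the fit, was 0.25 over the 44 genes and 0.18 over all loci, and 32 of 44 genes were above the latter. It was largest in Creld2 (1.19), Derl3 (1.07), Hyou1 (0.88) and Hspa5 (0.75). At 20 weeks it was 0.23 over the 44 genes and 0.25 over all loci, with 20 of 44 above. Among the 35 genes with a promoter entry, the 13 with a motif had a median SD of 0.44 and the 22 without had 0.20 at 39 weeks, and 0.31 and 0.22 at 20 weeks. At 20 weeks all 13 with a motif were positive in mice labelled Ncoa5+/- (median log2 fold change 0.55, range 0.06 to 1.54), as were 19 of 22 without (median 0.29, range -0.18 to 1.003). The ranges of the 2 sets overlapped, and the difference between them was not tested.

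**Figure D4:**
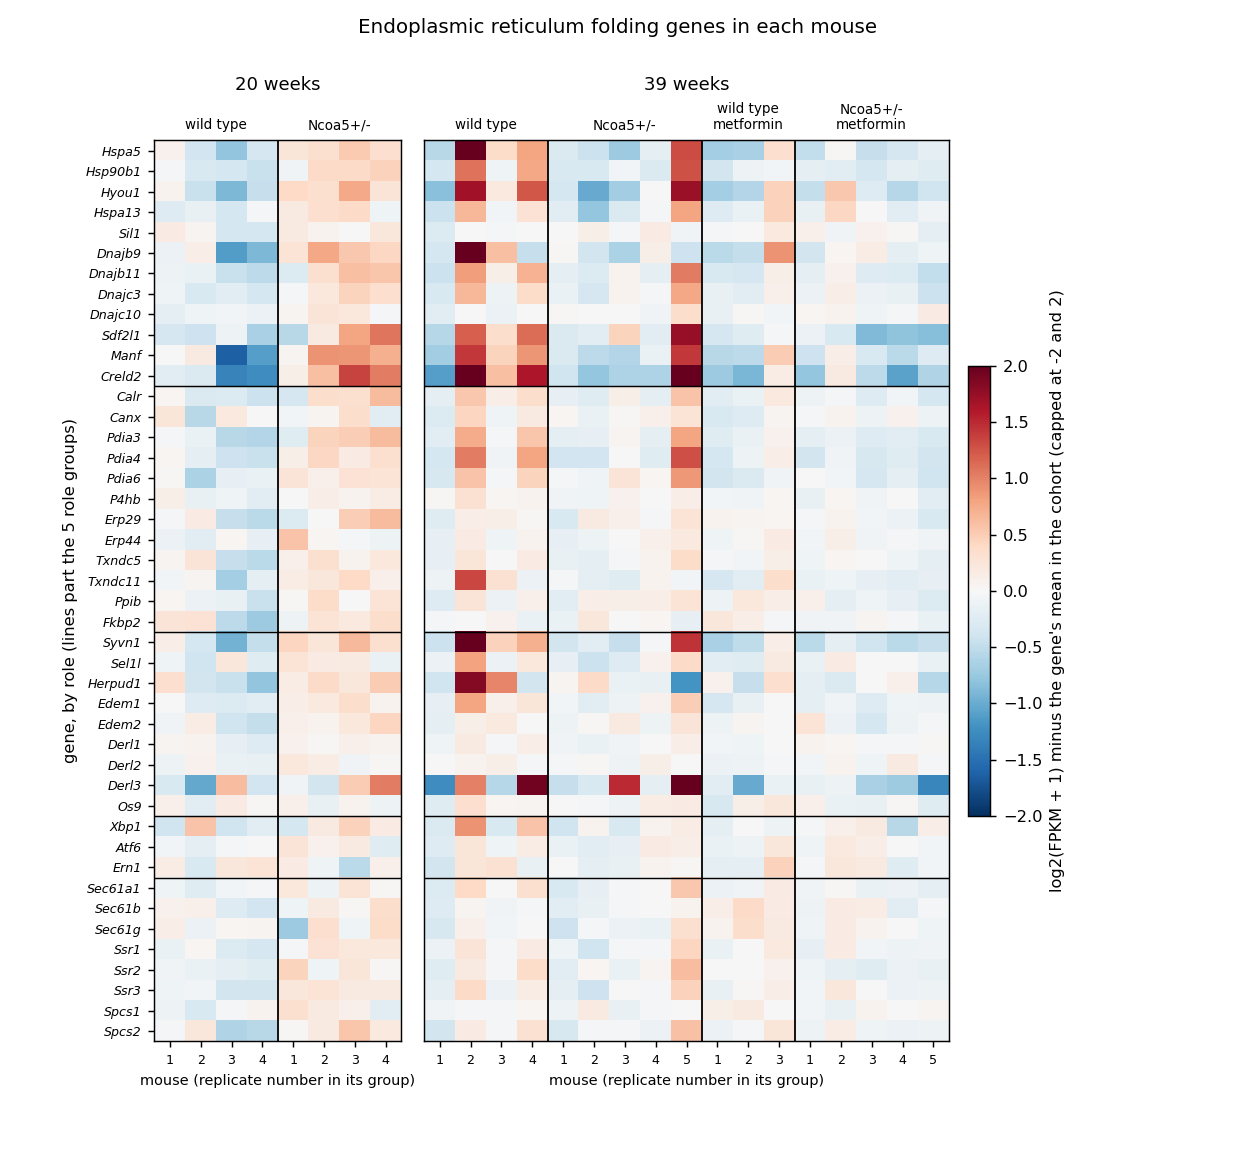
Each gene's log2(FPKM + 1) minus its mean in the cohort, for 44 genes (rows, by role) and 25 mice (columns, by group), with colours capped at -2 and 2. At 20 weeks the columns labelled Ncoa5+/- are mostly red, and at 39 weeks single columns stand out, wild type 2 and 4 and Ncoa5+/- 5.

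In mice labelled Ncoa5+/-, metformin was compared with no treatment at 39 weeks. The 44 log2 fold changes were positive in 13 and negative in 31, with a median of -0.09 beside 0.00 over all loci. By limma 0 of 44 genes passed, as did 0.0% of all loci, with a smallest adjusted p of 0.540, and 2 genes, both lower, had an unadjusted p under 0.05 (8.83% of all loci). These 2 were Sdf2l1 (log2 fold change -0.89 ± 0.38, adjusted p = 0.540) and Pdia6, a disulfide isomerase (-0.40 ± 0.19, adjusted p = 0.561). Derl3 stood at 3.57, 3.71, 2.25, 2.08 and 1.05 FPKM with metformin and at 2.70, 3.10, 13.3, 3.45 and 29.2 FPKM without (-1.21 ± 0.62, adjusted p = 0.591). The groups overlapped in all 44 genes. Ppib, a prolyl isomerase, and Ssr2, a translocon-associated subunit, completed the 5 genes with the smallest p, at -0.21 ± 0.11 (adjusted p = 0.595) and -0.22 ± 0.13 (adjusted p = 0.649).

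The values turned on 1 untreated mouse: without Ncoa5+/- replicate 5, 22 genes were positive and the median was 0.00, with Derl3 at -0.72, Sdf2l1 at -0.53, Pdia6 at -0.24 and Ssr2 at -0.09. There were 0 genes at an unadjusted p under 0.05 without that mouse, without untreated replicate 3 or without treated replicate 3, 4 or 5, and 6 without untreated replicate 1. With all mice 8.83% of all loci were past that level by limma. The share without untreated replicate 1 is not given here, so the 6 genes cannot be set against all loci. The authors' deposited table for this comparison marked 4 of the 44 genes significant, all lower with metformin, among 1.22% of its loci: Creld2, Derl3 and Sdf2l1 (q = 0.00668 each) and Pdia4 (q = 0.0429). Its median log2 fold change over the 44 genes was -0.09, with 8 positive. In all 4 of these genes the highest of the 10 values was that of untreated Ncoa5+/- replicate 5.

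In wild type mice, the 44 genes were positive in 11 and negative in 33 with metformin, with a median of -0.13 beside -0.01 over all loci. By limma 0 of 44 genes and 0.0% of all loci passed, the smallest adjusted p of the genes being 0.391. At an unadjusted p under 0.05 there were 3 genes, against 9.35% of all loci. Sec61b stood at 233.9, 278.3 and 239.3 FPKM with metformin and at 179.3, 221.7, 203.5 and 207.5 FPKM without (log2 fold change 0.30 ± 0.11, adjusted p = 0.391), and it was the 1 gene whose treated mice were all higher (4.37% of all loci). Derl2, another derlin, was the 1 gene whose treated mice were all lower (85.1 to 90.6 against 91.0 to 100.1 FPKM, 3.96% of all loci). Syvn1 stood at -1.04 ± 0.48 (adjusted p = 0.521), Edem1 at -0.40 ± 0.19 (0.530), Hspa5 at -1.02 ± 0.52 (0.565) and Sec61g, another channel subunit, at 0.27 ± 0.14 (0.563). Without wild type replicate 2 the values were -0.53 for Hspa5, -0.59 for Syvn1, -0.22 for Edem1 and -0.07 for the median of the 44 genes. Wild type replicate 1 had 1 of 44 genes above the cohort mean, against 45.5% of all loci. Without it 14 genes had an unadjusted p under 0.05, where 11.1% of all loci did, and without treated replicate 2 there were 0. The 2 genes with groups apart became 10 without treated wild type replicate 3, 8 without untreated replicate 1 and 4 without treated replicate 1. Leaving out a mouse by itself makes such small groups easier to separate. As the share of all loci apart was not taken in these settings, the counts cannot be set against all loci.

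Among metformin-treated mice 11 genes were positive in the Ncoa5+/- group and 33 negative, with a median of -0.07 beside -0.01 over all loci. By limma 0 of 44 genes passed, against 0.157% of all loci, with a smallest adjusted p of 1, and 1 gene, Sec61b, had an unadjusted p under 0.05 (4.35% of all loci). Sec61b stood at 198.2, 239.3, 236.9, 182.8 and 208.5 FPKM in treated mice labelled Ncoa5+/-, overlapping the treated wild type values given above (-0.23 ± 0.10, adjusted p = 1). Ssr2 was the 1 gene with groups apart, at 75.3 to 83.9 against 88.2 to 94.2 FPKM (1.72% of all loci lay apart in this direction). Without treated wild type replicate 3 the split turned to 29 positive, the median to 0.03 and the genes with groups apart to 12, and without treated wild type replicate 1 there were 5 such genes. With fewer mice groups separate more easily, and the share of all loci apart was not taken in these settings. The 1.72% belongs to the full groups and is no measure for these counts. The genes next in order of p were Fkbp2 (-0.16 ± 0.09), Ppib (-0.21 ± 0.13), Sec61g (-0.19 ± 0.13) and Spcs1, a signal peptidase subunit (-0.10 ± 0.08), each at a limma adjusted p of 1.

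Treated mice labelled Ncoa5+/- were also set against untreated wild type mice, with the same untreated wild type mice as above. The split was 7 positive and 37 negative, with a median of -0.20 beside -0.01 over all loci, and 0 of 44 genes passed limma's test, against 0.262% of all loci. At an unadjusted p under 0.05 there were 9 genes, all lower, against 12.1% of all loci. Sdf2l1 had the smallest adjusted p, 0.277, at 37.7, 32.8, 21.7, 22.9 and 22.4 FPKM against 27.4, 94.7, 52.3 and 90.0 FPKM (-1.11 ± 0.40). It overlapped through wild type replicate 1, the lowest untreated wild type mouse. Syvn1 stood at -1.12 ± 0.42 (adjusted p = 0.295), P4hb, the classic disulfide isomerase, at -0.19 ± 0.08 (0.326), Edem1 at -0.38 ± 0.16 (0.365) and Pdia3, which works with the lectin chaperones, at -0.47 ± 0.21 (0.376). Without wild type replicate 2, 0 genes had an unadjusted p under 0.05 and the median was -0.06, with Syvn1 at -0.67, Edem1 at -0.20, P4hb at -0.13 and Pdia3 at -0.31. Without wild type replicate 1 there were 18 such genes, where 13.5% of all loci were past that level, and 12 genes had groups apart. For the latter the share of all loci was not taken, and fewer mice are easier to separate.

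The interaction of genotype and metformin, which asks whether the drug's difference is unequal between genotypes, gave 27 positive and 17 negative values with a median of 0.06 beside 0.01 over all loci. By limma 0 of 44 genes and 0.0% of all loci passed, with a smallest adjusted p of 0.991, and 0 genes had an unadjusted p under 0.05, against 2.79% of all loci. The 5 genes with the smallest p were Sec61b (-0.25 ± 0.14), Ppib (-0.30 ± 0.17), Sil1 (-0.19 ± 0.12), Fkbp2, a prolyl isomerase (-0.18 ± 0.12) and Derl1, a derlin (0.14 ± 0.10), each at a limma adjusted p of 0.991. Without untreated wild type replicate 2 the median turned to -0.04, with 16 genes positive.

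By role, medians differed in size among the comparisons at 39 weeks. In wild type mice given metformin the median log2 fold change was -0.51 for the 12 genes of the Hsp70 and Hsp90 system (2 positive), -0.29 for the 9 ERAD genes (0 positive), -0.19 for the 12 lectin, disulfide and prolyl isomerase genes (4 positive) and -0.02 for the 8 translocation genes (4 positive). The 3 sensor genes had a median of -0.01 (1 positive). With the treated Ncoa5+/- group set against untreated wild type mice these medians were -0.58, -0.22, -0.16 and -0.07. In mice labelled Ncoa5+/- given metformin against untreated ones they were -0.21, -0.11, -0.12 and within 0.01 of 0. The differences between roles were not tested, and these comparisons share groups of mice. Role medians were not taken with mice left out, and single untreated mice lay far apart. In the same order of roles, untreated wild type replicate 2 averaged 1.23, 0.80, 0.48 and 0.19 above the cohort mean of log2(FPKM + 1). Untreated wild type replicate 1 averaged -0.51, -0.32, -0.19 and -0.23 from it.

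**Figure D5:**
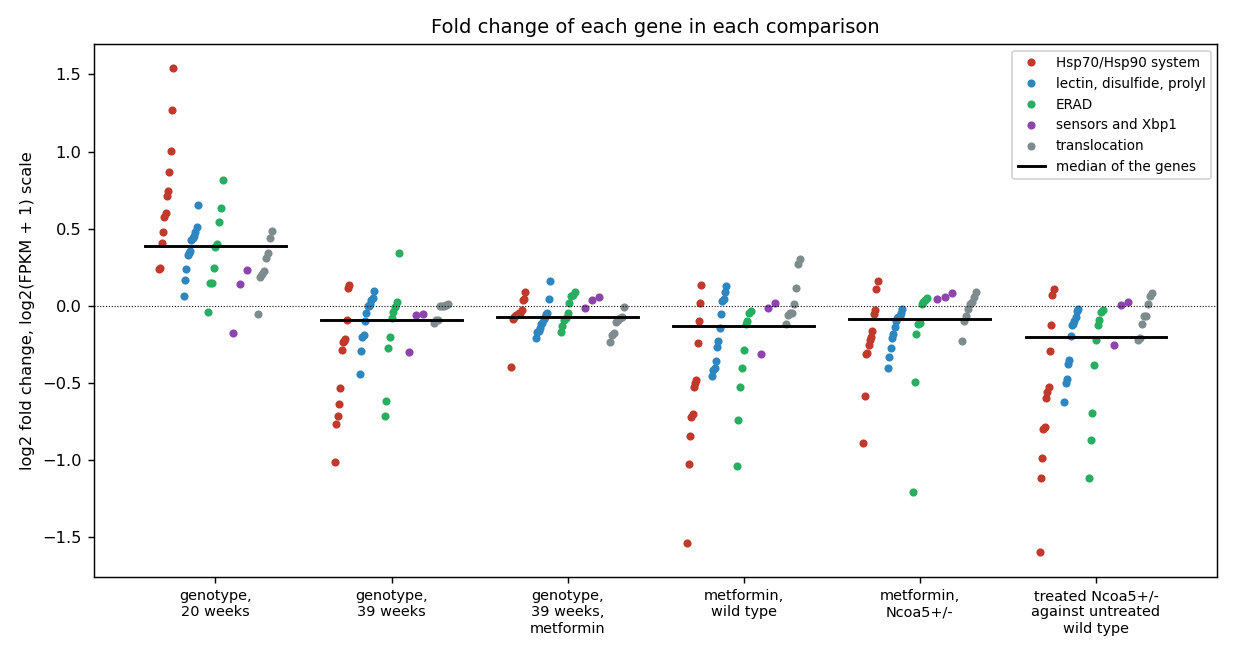
Log2 fold change of each of the 44 genes (points, coloured by role) in 6 comparisons of groups, with a black line at the median of the 44 genes. The median is 0.39 for genotype at 20 weeks and between -0.20 and -0.07 in the 5 comparisons at 39 weeks, several of which share groups of mice.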

How the data were processed

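Liver RNA libraries of 25 mice were analysed, 8 at 20 weeks and 17 at 39 weeks, 1 library a mouse. The authors trimmed reads with Trimmomatic 0.33 and used TopHat2, Cufflinks and Cuffnorm with the build GRCm38.p5, per the submitters' processing notes, which give no version for the last 3. The values the authors deposited for each mouse are FPKM, scaled within a cohort by Cuffnorm. The authors' deposited comparison tables hold group FPKM, log2 fold changes, a test score, p-values and q-values. The sign of their log2 values was reversed here, as their headers name the Ncoa5+/- or treated group first.

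Tests were run with limma 3.58.1 in R 4.3.3 (lmFit, eBayes with a trend) on log2(FPKM + 1), which understates changes of low genes, for loci whose cohort mean reached 1 FPKM, with 2 groups at 20 weeks and 4 at 39 weeks, in 7 comparisons. Loci at 0 throughout 1 group but above 0 in every mouse of another (15 and 14, no folding gene among them) were left out as failed estimates. The code was tested on simulated data. Precision is given by the spread between mice alone. The 44 genes and all lists were chosen with earlier results of these data known. Levels by mouse are given for 15 genes listed in advance by role, and fold changes with errors for the 10 genes with the smallest p in each genotype comparison of untreated mice and the 5 in each other comparison. Other values by mouse, and Fos, Egr1, Ddit3 and Hspa1a, were named after being seen, as was the threshold of 1.5 times the median. Lists beside these were markers of 10 cell types, immediate early, clock and cytosolic heat shock genes. Alternatives were other pseudocounts (0.1 and 5), filters, scalings, weights and fits, and leaving out mice.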

Additional observations from a re-analysis of the deposited data

Results flagged for a closer look

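Of 75 groups of 4 or 5 mice examined (15 genes in 5 groups), 10 held 1 mouse whose gap to the next, set against the range of its group, passed Dixon's 95% limit. For normally distributed values chance flags about 1 in 20. FPKM was taken unlogged and each of the 10 was the highest of its group, so that rate may not hold here. Replicate 5 of the untreated mice labelled Ncoa5+/- at 39 weeks accounts for 8 of the 10. In that mouse Hspa5 was at 684.0 FPKM (next 239.8), Hsp90b1 at 700.7 (279.2), Hyou1 at 127.4 (38.2), Sdf2l1 at 139.1 (56.3), Manf at 557.4 (189.3), Creld2 at 174.4 (21.7), Pdia4 at 221.8 (90.0) and Syvn1 at 60.8 FPKM (21.1). The genes of 1 mouse share its library, so these are not separate events. Hyou1 stood at 55.9 FPKM in metformin-treated Ncoa5+/- replicate 2, where the next mouse had 31.8 FPKM. Xbp1 stood at 162.6 FPKM in wild type replicate 2 at 20 weeks, where the next had 93.5 FPKM.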

How the results depend on the processing

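No folding gene passed limma's adjusted test in any of the 7 comparisons under any alternative run. At 20 weeks the lowest adjusted p was 0.073, with array weights, and the highest 1. The median log2 fold change at 20 weeks stayed between 0.28 and 0.46, with 39 to 42 genes positive. Keeping failed estimates at 0 called 13 loci in all at 20 weeks, leaving out wild type replicate 4 called 4, and leaving out wild type replicates 3 and 4 called 5, against 0. At 39 weeks the median for untreated genotypes ran from -0.18 without Ncoa5+/- replicate 5 to -0.01 without wild type replicate 2, with 4 and 20 genes positive. Without that replicate 5, 10 of 44 genes had an unadjusted p under 0.05 (7.17% of all loci), and without wild type replicates 1 or 4 there were 7 and 3 (7.74% and 6.43% of all loci), against 0. Quantile normalization gave 17 and a median shift 16 positive genes, against 12. The interaction median ran from -0.04 to 0.18. No paired analysis was possible because replicate numbers follow accession order and pair no mice. With FPKM alone, depth per mouse cannot be weighed.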
